A study of Mus musculus with 33 samples.

Results

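Hair follicle cells from mouse skin (HFC) were compared with a group of keratinocyte-like libraries of thymic epithelium, to show which keratinocyte programs skin and thymus hold in common and which they do not. The comparison took 7 of the series' 33 libraries and all 15273 genes of the table. One side was the 3 libraries titled Foxn1_HFC_GFP_pos. The other was the 6-week wild-type thymic libraries in which Pth, the gene of parathyroid hormone, took more than 0.1% of the unique molecular identifiers (UMIs). This rule found 4 of 20 libraries, in which Pth held between 0.389% and 1.39%. The highest 6-week library outside it held 0.0023%. Pth itself therefore received no test.

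Every library was made by bulk MARS-seq, a method that reads transcripts at their 3' ends and uses UMIs to count molecules, and all mice were C57BL/6. The HFC were trypsinized out of shaved back skin of 4-week-old mice with the genotype Foxn1.EGFP positive, and sorted, per the titles, as GFP positive. The thymic epithelial cells (TEC) came from 6-week-old wild-type mice, whose thymi were dissociated with the enzymes Liberase TH and DNase before sorting. The remaining libraries are 16 other 6-week TEC libraries and 10 of embryonic or 6-day-old TEC. Tissue, age, genotype, digestion and sort thus differ together between the sides and cannot be told apart. Nothing in the labels ties a library to an animal, so p-values measure only the spread between these libraries, which may be technical.

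Stratified epithelium renews from a basal layer marked by the keratin pair Krt5 and Krt14. Cells that leave this layer switch to Krt1 and Krt10 in the spinous layer, and then load the proteins of the cornified envelope, a cross-linked shell that replaces the plasma membrane of dead surface cells. Hair follicles build further programs on this base: an outer root sheath, a companion layer, an inner root sheath that moulds the hair, and the shaft itself. In the thymic medulla, late TEC also turn on keratinocyte genes and form the swirls known as Hassall's corpuscles, and other medullary TEC switch on programs of distant tissues, through which developing T cells meet self-antigens. Foxn1 is needed in both places, for TEC to differentiate and for hair to keratinize.

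The titles of the thymic side do not name a single population. They read 191_mTEC3, 191_mTEC4, 195_cTEC and 195_mTEC1, and values of the 4 thymic libraries are given below in this order. As cTEC and mTEC stand for cortical and medullary TEC, the rule took libraries of both titles. Levels are in CPM, UMIs per 1000000 UMIs of a library. Of the 4 genes proposed as markers, Krt10 and Sprr1a exceeded the highest of the other 16 6-week libraries in all 4 thymic libraries. Lgals7 and Krt6a did not: Krt6a stood at 68.6, 20.2, 59.5 and 10.1 CPM in them, below the 156 CPM reached by another 6-week library, and Lgals7 fell short in the library titled 195_cTEC. The side is therefore called Pth-high thymic below. On the skin side, inner root sheath keratins and hair follicle regulators, described below, were detected in all 3 HFC libraries, whereas genes of the hair shaft were near 0.

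The sides also differed in depth and makeup. Totals were 520844 to 679168 UMIs in HFC and 98670 to 175014 in the thymic libraries, so 3 UMIs, the most that a count of 0 allows, stood for 4.42 to 5.76 CPM and 17.1 to 30.4 CPM, for counting error only. The 10 most abundant genes took 21.9% to 28.9% of UMIs in HFC and 5.67% to 7.59% in the thymic libraries. Pairs of libraries of a side differed by more than counting noise (chi-square over degrees of freedom 3.25 to 7.63). Gapdh stood at 833, 21.8 and 786 CPM in HFC libraries 1, 2 and 3 and at no more than 29.7 CPM in the thymic libraries. It thus varied within the HFC side, and it ran from 3.76 to 1530 CPM over the 16 other 6-week libraries. In bulk samples fewer cells of a type and less RNA per cell cannot be told apart.

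The genes that open the comparison are Sprr1a and Krt10, high on both sides, Krt14 and Lgals7, high in HFC, and Rptn and Chga, high in the thymic libraries. The 250 bases before the start of each, 5' to 3' (RefSeq, GRCm38.p6), are shown as examples of levels held in common and of levels that divide by side, with matches of 4 motifs, on both strands, in capitals.
Sprr1a (chr3:92485882-92486131, minus strand): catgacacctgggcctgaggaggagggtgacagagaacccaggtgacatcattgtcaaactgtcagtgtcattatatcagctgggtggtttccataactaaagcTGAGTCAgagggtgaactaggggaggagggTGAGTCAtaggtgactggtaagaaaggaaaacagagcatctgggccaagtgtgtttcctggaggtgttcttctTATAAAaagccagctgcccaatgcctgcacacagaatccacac
Krt10 (chr11:99389365-99389614, minus strand): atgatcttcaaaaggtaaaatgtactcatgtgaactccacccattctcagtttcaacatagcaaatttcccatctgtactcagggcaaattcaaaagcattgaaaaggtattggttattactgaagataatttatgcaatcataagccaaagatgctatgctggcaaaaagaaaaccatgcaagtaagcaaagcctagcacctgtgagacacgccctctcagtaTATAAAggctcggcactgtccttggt
Krt14 (chr11:100206031-100206280, minus strand): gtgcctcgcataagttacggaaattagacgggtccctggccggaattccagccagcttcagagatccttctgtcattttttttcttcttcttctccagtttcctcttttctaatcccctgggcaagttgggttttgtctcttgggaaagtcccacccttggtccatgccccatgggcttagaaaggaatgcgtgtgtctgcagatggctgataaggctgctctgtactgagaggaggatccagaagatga
Lgals7 (chr7:28864136-28864385, plus strand): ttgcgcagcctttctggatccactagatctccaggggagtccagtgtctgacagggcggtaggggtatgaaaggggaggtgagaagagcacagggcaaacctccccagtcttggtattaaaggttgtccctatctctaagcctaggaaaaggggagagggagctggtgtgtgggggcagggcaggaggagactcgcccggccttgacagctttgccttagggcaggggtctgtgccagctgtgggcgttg
Rptn (chr3:93393449-93393698, plus strand): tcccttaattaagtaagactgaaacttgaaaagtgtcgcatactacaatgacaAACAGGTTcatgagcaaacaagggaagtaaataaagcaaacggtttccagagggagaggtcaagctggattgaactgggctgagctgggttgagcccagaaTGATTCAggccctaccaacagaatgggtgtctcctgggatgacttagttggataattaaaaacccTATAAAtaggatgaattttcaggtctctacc
Chga (chr12:102554691-102554940, plus strand): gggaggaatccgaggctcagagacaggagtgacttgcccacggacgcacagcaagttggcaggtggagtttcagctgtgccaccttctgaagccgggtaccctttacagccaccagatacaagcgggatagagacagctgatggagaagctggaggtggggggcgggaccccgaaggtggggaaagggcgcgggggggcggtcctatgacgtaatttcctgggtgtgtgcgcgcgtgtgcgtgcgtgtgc
The motifs searched were TGANTCA, the site of AP-1, TATAAA, the TATA box, TGACGTCA, the cAMP response element, and AACCNGTT, the site of grainyhead-like factors. Among 32851 promoter windows of the same length these were present in 6.75%, 12.4%, 1.55% and 1.79%. Sprr1a held TGANTCA at 2 positions and TATAAA 43 bases before the start. Rptn held TGANTCA 96, TATAAA 31 and AACCNGTT 197 bases before it, and Krt10 held TATAAA 26 bases before it. The windows of Krt14, Lgals7 and Chga held none of these letters. By the gene coordinates given below (GENCODE), however, the windows of Krt14 and Lgals7 lie inside the gene, downstream of that start. The lack of matches there does not describe the bases before the GENCODE start.

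Across all genes the sides differed widely. Of 10602 genes with at least 5 normalized UMIs in 2 or more of the 7 libraries, 2365 (22.3%) passed an adjusted p below 0.05, with 554 of them (5.23%) above and 1811 (17.1%) below the thymic side in HFC. The libraries of the sides did not overlap for 913 genes higher (8.61%) and 2385 lower (22.5%). Scaled to library totals, all genes had a median difference of -0.46 log2 units, HFC minus thymic. Median of ratios scaling gave -0.02, and called 916 genes higher (8.8%) and 1375 lower (13.2%). List medians below are to be read against -0.46, and list counts from limma against 5.23% higher and 17.1% lower. With edgeR's quasi-likelihood test the median was -0.13, with 1296 higher (12.2%) and 2022 lower (19.1%). Without HFC library 1 there were 1538 calls, and without library 3 there were 1458.

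**Figure D1:**
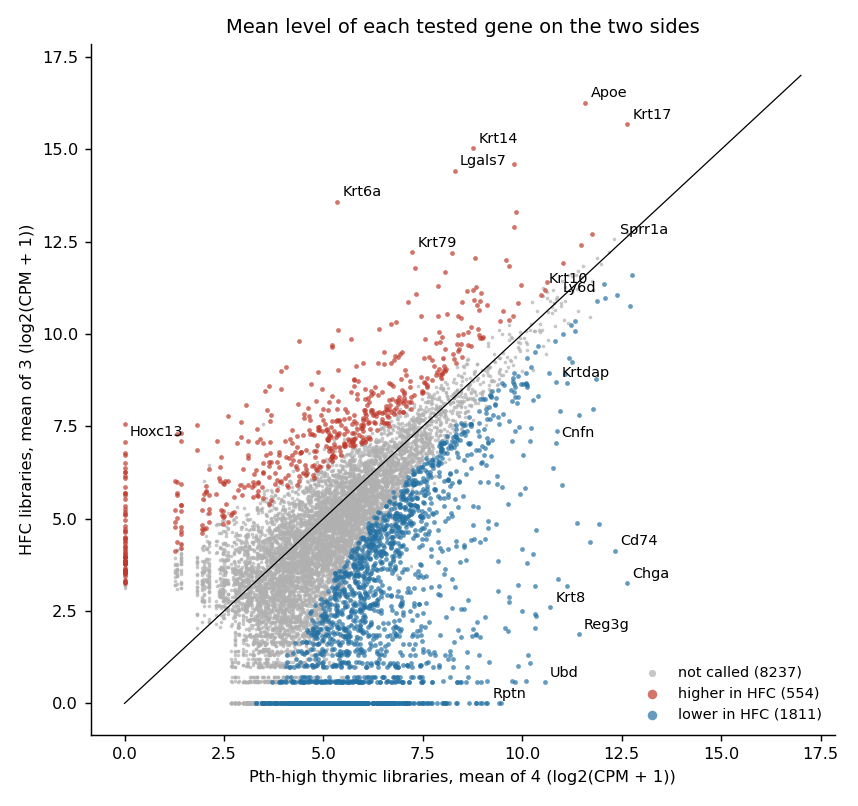
Mean level of each of 10602 tested genes in the 4 Pth-high thymic libraries (x axis) and the 3 HFC libraries (y axis), both as log2(CPM + 1), coloured by call at an adjusted p below 0.05. Keratins of the basal and companion layers stand far above the diagonal, Sprr1a, Krt10 and Ly6d near it, and Rptn, Chga, Krt8 and Cd74 far below.

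The most abundant gene of HFC was Apoe, an apolipoprotein, at 98989, 61971 and 74781 CPM in libraries 1, 2 and 3, against 2434, 1706, 1005 and 7145 in the thymic libraries (log2 difference 5.04 ± 0.50 (SE), adjusted p = 2.05e-05). Cstb, a cysteine protease inhibitor, held 9479, 7016 and 6479 CPM in HFC and 1091, 829, 827 and 791 in the thymic libraries, again without overlap (adjusted p = 1.09e-06). Among the 10 most abundant genes of the thymic side were Pth, Chga, Krt17, Sprr1a, Cd74 and B2m, beside Actb and the ribosomal protein gene Rplp1, which limma did not call with library totals and edgeR called higher in HFC, by 0.66 and 0.67 log2 units. Krt17 and Sprr1a were thus abundant keratinocyte genes on both sides. Sprr1a lay above every other 6-week library in each of the 7 libraries, whereas Krt17 did not.

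Keratinocyte and hair genes were grouped in 16 lists. Of their 335 genes, 285 were in the table. Counting a gene as expressed where the median of a side reached 50 CPM, 78 were expressed on both sides, 32 in HFC only, 42 in the thymic libraries only and 133 on neither. The spinous layer list had the most members expressed on both sides, 17 of 19. Their levels were not equal: the list summed to 45406 to 54882 CPM in HFC and 13365 to 22649 in the thymic libraries. Of all 15273 genes, 1326 had at least 50 CPM in each of the 7 libraries, a stricter rule. The median rule was not applied to all genes. The counts therefore do not show whether listed genes were expressed on both sides more often than other genes. The lists of the inner root sheath, hair shaft, cytokines and growth factors and simple epithelial keratins had 0 members expressed on both.

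**Figure D2:**
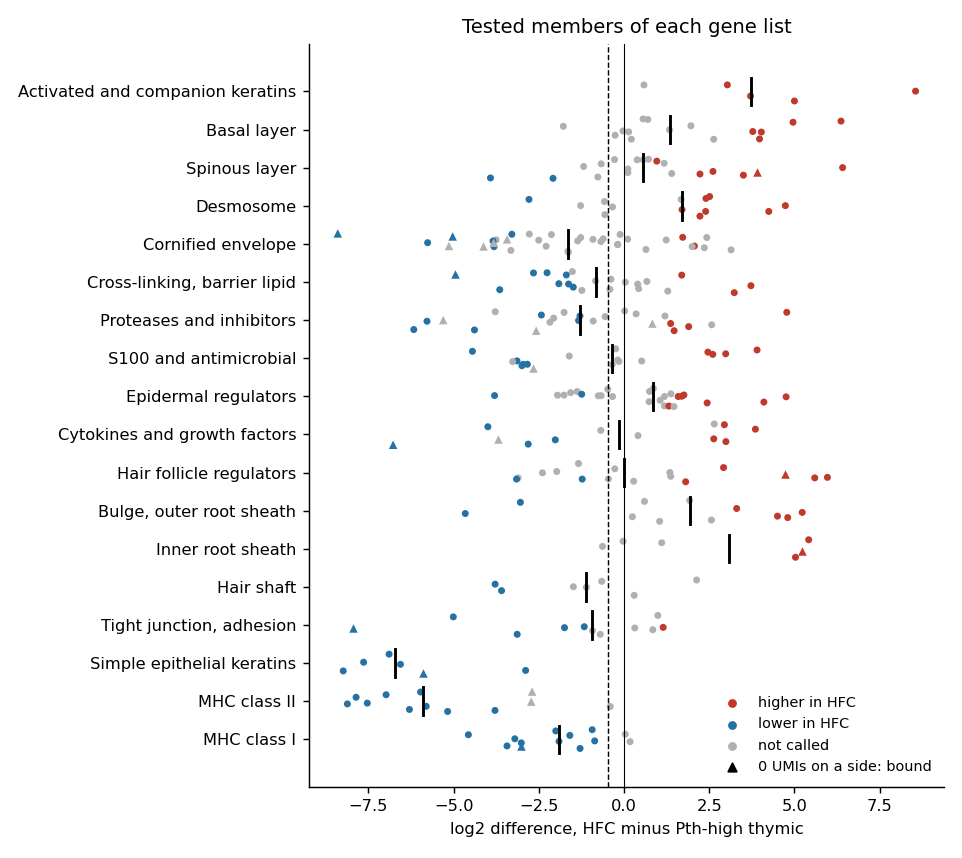
Log2 difference, HFC minus Pth-high thymic, of each tested member of 18 gene lists, coloured by call. Triangles stand at the lower bound for genes with 0 UMIs on a side, black bars are medians with such genes at their bound, and the dashed line is the median of all genes (-0.46). Activated keratins lie to the right, simple epithelial keratins and MHC class II to the left, and the cornified envelope spreads to both sides.

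Several genes of the spinous layer, and Sprr1a of the cornified envelope list, were abundant on both sides. Sprr1a (chromosome 3, 92483952 to 92485895, minus strand, GRCm38), a small proline-rich precursor of the cornified envelope, stood at 10293, 3328 and 4549.7 CPM in HFC and 4159.7, 4181, 5972 and 6050.5 in the thymic libraries, with the thymic values inside the HFC range. Its log2 difference was 0.10 ± 0.33 (95% interval -0.62 to 0.83, adjusted p = 0.856), and the highest other 6-week library held 1521 CPM. Krt10 (chromosome 11, 99385254 to 99389364, minus strand), the type I keratin of the spinous layer, stood at 3742, 1816 and 1702 CPM in HFC and 714, 1531, 1987 and 1652 in the thymic libraries, overlapping between the sides (adjusted p = 0.185). It was called higher in HFC with median of ratios scaling, edgeR and DESeq2. Its partner Krt1 held 1127, 378 and 400.5 CPM in HFC and 74.3, 182, 315 and 446 in the thymic libraries (adjusted p = 0.093), and it too was called higher in HFC with median of ratios scaling, edgeR and DESeq2, and without the thymic library titled 195_mTEC1. Ly6d, a surface protein of stratified epithelium, was at 2628, 1683 and 1808 CPM and 1543, 1827, 2069.8 and 2017 CPM, with a 95% interval of the log2 difference of -0.37 to 0.59. Calml3, a calmodulin-like protein of epithelia, was at 526, 479 and 558 and 354, 688, 660.2 and 334 CPM, and its interval was -0.54 to 0.76. These intervals hold for scaling to library totals. With median of ratios scaling the log2 differences of Sprr1a, Ly6d and Calml3 were 0.57, 0.57 and 0.57, and none was called (adjusted p = 0.296, 0.112 and 0.203). edgeR called Sprr1a and Ly6d higher in HFC, by 0.91 and 0.77 log2 units (adjusted p = 0.021 and 0.0273), and did not call Calml3 (adjusted p = 0.104).

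Genes with at least 50 CPM in each of the 7 libraries whose lowest value also lay above the highest of the other 16 6-week libraries numbered 33, among 1326 genes with at least 50 CPM in all 7. Because the thymic libraries were chosen from the 6-week ones, this is a description. Of the 33, 23 had a log2 difference between -1 and 1. Beside Sprr1a, Krt10, Ly6d and Calml3, given above, they included Hspb1, a small heat shock protein of differentiating keratinocytes. Hspb1 was at 7689, 5881 and 6314 CPM in HFC and 2834, 3533, 3218 and 4287 in the thymic libraries. The 23 also included 2 further members of the spinous list. Sbsn, suprabasin, was at 5743, 5070.2 and 5535 and 2703, 2090.3, 3819 and 2838 CPM. Dmkn, dermokine, was at 1050.2, 1041 and 663 and 1103, 1227, 2230.4 and 1824 CPM. Hspb1 (log2 difference 0.94 ± 0.21, adjusted p = 0.00621) and Sbsn (0.96 ± 0.22, adjusted p = 0.00817) were higher in HFC, and Dmkn was not called (adjusted p = 0.0742), except lower in HFC without the thymic library titled 191_mTEC3. Krt16, a type I keratin of activated keratinocytes, stood at 899, 1459 and 1257 and 600.0, 654, 898 and 1095 CPM (adjusted p = 0.144). Fxyd3, a regulator of the sodium pump, at 755, 1390.0 and 585 and 891, 627, 1332 and 405 CPM, and Gltp, a glycolipid transfer protein, at 346, 345 and 345 and 269, 256, 315 and 497 CPM, were not called. Prdx5, a peroxiredoxin, was higher in HFC (adjusted p = 0.0287) and Urah, a hydrolase of the urate pathway, lower (adjusted p = 0.0374). The call of Hspb1 was lost without HFC library 1, that of Sbsn without HFC library 1 or 3, and that of Prdx5 without HFC library 1 or 3 or the thymic library titled 191_mTEC3. Urah lost its call with median of ratios scaling, edgeR and DESeq2, without each HFC library in turn and without the thymic library titled 191_mTEC4 or 195_cTEC.

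**Figure D3:**
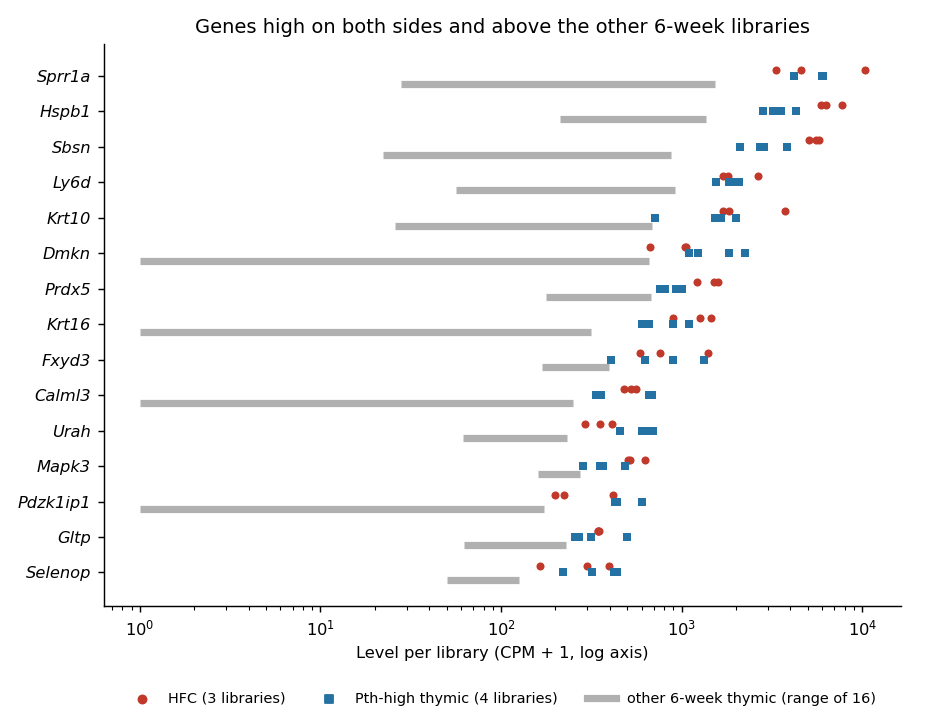
Level per library (CPM + 1, log axis) of the 15 most abundant genes with at least 50 CPM in all 7 libraries, above every other 6-week library and with a log2 difference between -1 and 1. Circles are the 3 HFC and squares the 4 Pth-high thymic libraries, and the bar is the range of the 16 other 6-week libraries. Both sides lie to the right of the bar for each gene.

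Basal and activated keratins set the skin side apart. Krt14 (chromosome 11, 100203162 to 100207548, minus strand) stood at 31595, 31364 and 37636 CPM in HFC and 349, 674, 464 and 243 in the thymic libraries. Every thymic value lay inside the range of the other 6-week libraries, whose highest held 2461 CPM. The mean of HFC was 77.5 times that of the thymic side (log2 difference 6.36 ± 0.30, adjusted p = 8.06e-08). Krt5, its type II partner, held 21836, 24877 and 28324 CPM against 697, 1537, 916 and 416 (adjusted p = 1.31e-06). Of 15 basal layer genes, all tested, 5 were higher in HFC, 0 lower and 10 not called, with a median of 1.33. The 5 were Krt5, Krt14, Trp63, the p63 gene that maintains the basal state, Col17a1, a hemidesmosomal collagen, and Cdh3, P-cadherin. The count was 3 without HFC library 2 or without library 3, and 9 with edgeR. Itgb4, an integrin of the hemidesmosome, was called higher with median of ratios scaling, edgeR and DESeq2 but not with scaling to library totals (119 to 184 CPM in HFC and 60.8 to 121 in the thymic libraries).

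Krt6a (chromosome 15, 101689910 to 101694307, minus strand), a type II keratin of the companion layer and of activated epidermis, stood at 13278, 12991 and 10582 CPM in HFC against 68.6, 20.2, 59.5 and 10.1 CPM. Summed with its near-identical neighbour Krt6b, since tags can be split between them, the pair held 13367, 13070.3 and 10726 CPM in HFC and 91.4, 20.2, 107 and 10.1 CPM in the thymic libraries, again with every HFC value above every thymic one. The log2 difference of Krt6a was 8.55 ± 0.52 (adjusted p = 3.47e-07). Krt79, a keratin of the follicle's upper part and sebaceous duct, held 7154, 3488 and 3562 CPM against 206, 189, 131 and 70.9 (adjusted p = 2.28e-06). Krt17, a keratin of the outer root sheath, was also abundant in the thymic libraries, at 6045, 7100.1, 7584 and 4773 CPM, but reached 64282, 38141 and 54984 CPM in HFC (log2 difference 3.03 ± 0.24, adjusted p = 2.89e-06). Of the 5 activated and companion keratins in the table, 4 were thus higher in HFC, Krt6b among them, and Krt16 was not called with scaling to library totals. All 5 were higher with median of ratios scaling, edgeR and DESeq2, and Krt16 was also called without the thymic library titled 195_mTEC1. The list median was 3.71. The call of Krt6b was lost without each HFC library in turn and without the thymic library titled 191_mTEC4 or 195_mTEC1.

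**Figure D4:**
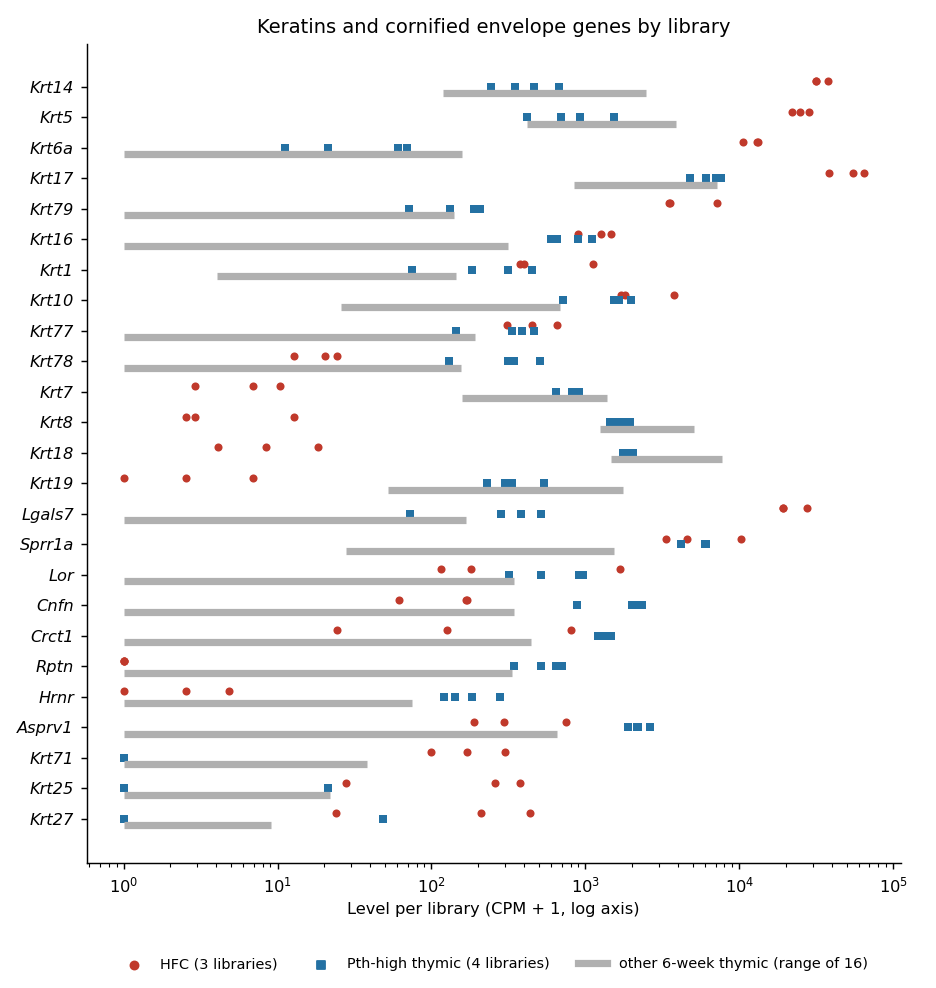
Level per library (CPM + 1, log axis) of 25 keratins, cornified envelope genes and related genes. Circles are the 3 HFC and squares the 4 Pth-high thymic libraries, and the bar is the range of the 16 other 6-week libraries. Krt14 to Krt79 are separated with HFC to the right, Krt7 to Krt19, Cnfn, Rptn and Hrnr with HFC to the left.

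Within the spinous list of 19 tested members, 6 were higher in HFC, 2 lower and 11 not called, with a median of 0.56. Over all genes 5.23% were higher and 17.1% lower. The count of higher members was 10 with median of ratios scaling and 12 with edgeR. Lgals7 (chromosome 7, 28863853 to 28866284, plus strand), galectin-7, a lectin of stratified epithelia, stood at 19180.4, 19262 and 27319 CPM in HFC and 383, 283, 71.4 and 517 in the thymic libraries (log2 difference 6.41 ± 0.52, adjusted p = 3.76e-06). The library titled 195_cTEC was the lowest of the 4. Sfn, the 14-3-3 sigma protein of differentiating keratinocytes, held 12349, 8446 and 9779.6 CPM in HFC and 566, 931, 1011 and 1166 in the thymic libraries (adjusted p = 2.1e-06). Lypd3 and Ly6g6c, relatives of Ly6d, differed as well, by 2.61 and 2.23 log2 units (adjusted p = 0.000535 and 0.00421), whereas Ly6d passed with edgeR and not with limma. In the other direction, Krt78, a type II keratin of upper epidermal layers, was at 19.2, 23.4 and 11.8 CPM in HFC and 343, 128, 315 and 507 in the thymic libraries (log2 difference -3.92 ± 0.46, adjusted p = 8.1e-05). Krtdap, a secreted keratinocyte differentiation protein, was at 361, 629 and 244 and 2228, 910.3, 3105 and 1105 CPM (log2 difference -2.09 ± 0.43, adjusted p = 0.00402). Leaving out the thymic library titled 191_mTEC3 raised the lower members from 2 to 4.

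Desmosomes, the junctions that rivet keratinocytes together, were a skin-high program. Of 14 genes, 13 were tested, and 7 were higher in HFC, 1 lower and 5 not called, with a median of 1.70. Dsp, desmoplakin, stood at 1739, 1771 and 2128 CPM in HFC and 314, 459, 339 and 324 in the thymic libraries (log2 difference 2.39 ± 0.22, adjusted p = 1.21e-05). The plakophilins Pkp1 and Pkp3 were higher too (adjusted p = 5.92e-05 and 0.000311), Pkp3 with 828, 978 and 963 CPM in HFC and 211, 87.7, 262 and 182 in the thymic libraries. The p53 target Perp differed by 2.23 log2 units (adjusted p = 7.18e-05). Dsc3, a desmosomal cadherin of the lower layers, held 493, 406 and 596 CPM against 11.4, 27.0, 53.5 and 20.3 (adjusted p = 3.79e-05). The lower member was Dsc2, a desmocollin of simple and stratified epithelia (adjusted p = 0.0107), and this call was lost without HFC library 1. Cdsn, corneodesmosin, which joins cells of the cornified layer, overlapped between the sides at 67.1 to 169 CPM in HFC and 80.9 to 223 in the thymic libraries (adjusted p = 0.358).

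Cornified envelope genes were spread widely. Of its 50 genes 44 were in the table and 35 tested: 2 were higher in HFC, 6 lower and 27 not called, with a median of -1.63. These limma counts are near limma's shares over all genes, 5.23% higher and 17.1% lower, and say nothing about the list as a whole. The counts depended on the tool. With edgeR 9 of the 35 members were higher and 14 lower in HFC, beside 12.2% higher and 19.1% lower over all genes. With DESeq2 the lower ones numbered 11, beside 1869 of all 10602 genes. Rptn (chromosome 3, 93393699 to 93399442, plus strand), repetin, an S100-fused envelope protein, had 0 UMIs in all 3 HFC libraries and 709, 344, 512 and 638 CPM in the thymic ones, at least 338-fold higher against a floor of 3 UMIs over the HFC side (adjusted p = 1.11e-07). Hrnr, hornerin, a protein of the same family, had 3 UMIs in HFC against 120.0, 142, 279.5 and 182 CPM, a ratio of pooled shares of 111, with a 95% counting interval of 37.1 to 548. Cnfn (chromosome 7, 25367620 to 25369724, minus strand), cornifelin, held 169, 60.8 and 166 CPM in HFC and 2319.8, 877, 1998 and 2108 in the thymic libraries (log2 difference -3.82 ± 0.41, adjusted p = 4e-05). Crct1, a cysteine-rich protein of the same gene cluster as Rptn, held 808, 23.4 and 125 and 1457, 1416, 1309 and 1206 CPM (adjusted p = 0.0113). Evpl, envoplakin, which tethers the envelope to desmosomes, was higher in HFC, at 309, 161 and 197 against 34.3, 33.7, 65.4 and 81.1 CPM (adjusted p = 0.00331). The other member higher in HFC was Sprr1b (adjusted p = 0.0291), and its call was lost without HFC library 1 or 3 and without each of 3 thymic libraries.

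Much of the spread came from late envelope genes that differed within a side. Lor, loricrin, stood at 1667, 114 and 179.6 CPM in HFC libraries 1, 2 and 3 and at 320.0, 512, 964 and 902 in the thymic libraries. HFC library 1 was above every thymic library and the other HFC libraries were below all of them (adjusted p = 0.409). Without HFC library 1, Lor was called lower in HFC. The 14 Lce1 genes, late envelope proteins so alike that tags can be split among them, summed to 3250.5, 40.6 and 58.9 CPM in HFC and 2303, 593, 1071 and 233 in the thymic libraries. The 10 Sprr2 genes, relatives of Sprr1a, summed to 49.9, 9.36 and 19.1 CPM and 114, 978, 184 and 132 CPM, the library titled 191_mTEC4 standing highest. Lor and the Lce1 sums thus differed among the libraries of a side and overlapped between the sides. The 6 Lce3 genes summed to 3.84, 0 and 4.42 CPM in HFC and 189, 6.74, 268 and 416 in the thymic libraries. Both the Sprr2 and the Lce3 sums were lower in every HFC library than in every thymic library. For Lce3, however, the library titled 191_mTEC4 lay below the 20.2 CPM that 3 UMIs stood for in it.

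Of 27 genes for envelope cross-linking and barrier lipids, 22 were in the table and 21 tested, with 3 higher in HFC, 8 lower, 10 not called and a median of -0.84. The 8 lower became 4 with median of ratios scaling and with edgeR, 5 without HFC library 2 and 4 without library 3. The 3 higher became 0 without HFC library 1, and 1 without library 2, library 3 or the thymic library titled 191_mTEC3. Asprv1, the skin aspartic protease that processes filaggrin, held 745, 296 and 188 CPM in HFC and 2194, 2636, 1879.5 and 2149 in the thymic libraries, without overlap (log2 difference -2.66 ± 0.37, adjusted p = 0.000302). Alox12e, an epidermal lipoxygenase, overlapped between the sides (181 to 860.1 and 324 to 607 CPM). Casp14, the caspase of cornifying cells, had 180 UMIs in HFC and 5 in the thymic libraries (adjusted p = 0.00663), a call lost without HFC library 1. Elovl4, an elongase that makes very long fatty acids of the skin barrier, was at 332, 105 and 82.5 and 28.6, 40.5, 71.4 and 40.5 CPM (adjusted p = 0.0307), a call lost without HFC library 1 or 2 and without the thymic library titled 191_mTEC3 or 191_mTEC4.

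Kallikreins, the serine proteases that shed surface cells, were split. Klk7, the chymotrypsin-like member, held 3141, 2286 and 2249.8 CPM in HFC and 1074, 789, 1291 and 841 in the thymic libraries (log2 difference 1.37 ± 0.24, adjusted p = 0.00136), and every one of these values was above the other 6-week maximum of 306 CPM. Klk6 and Klk5 were higher in HFC too (1.89 and 1.47 log2 units, adjusted p = 0.00605 and 0.0107), as was Klk10, at 611, 604 and 467 against 171, 13.5, 35.7 and 0 CPM (adjusted p = 0.00805). Klk8 did not differ beyond its spread (84.2 to 202 and 101 to 172 CPM, 95% interval -0.77 to 0.80). Klk13 stood at 1.92, 0 and 10.3 CPM in HFC and 383, 155, 119 and 416 in the thymic libraries (adjusted p = 8.57e-05). Klk14 had 1 UMI in HFC and 131, 148, 53.5 and 517 CPM in the thymic libraries, a ratio of pooled shares of 328, with a 95% counting interval of 57.5 to 13060.0. Spink5, the LEKTI inhibitor of these proteases, was lower in HFC, at 42.2, 31.2 and 28.0 against 109, 108, 351 and 294 CPM (adjusted p = 0.00273). So was Wfdc21 (-4.39 log2 units, adjusted p = 0.000116). The whole list of proteases and inhibitors, 23 tested of 29 in the table, had 4 higher in HFC, 6 lower and 13 not called, with a median of -1.29. The call of Klk5 was lost without HFC library 1.

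The S100 and antimicrobial list, with all 17 genes in the table tested, had 4 higher and 5 lower in HFC and 8 not called, with a median of -0.35, and edgeR called 8 lower. S100a14 and S100a16, calcium-binding proteins of epithelia, held 2066, 2498 and 2369 and 2141, 2417 and 2406 CPM in HFC against 354, 425, 535 and 253 and 331, 627, 369 and 405 CPM. Both were called, at adjusted p = 2.39e-05 and 2.31e-05. Lgals3, galectin-3, was higher in HFC by 3.90 ± 0.40 log2 units (adjusted p = 3.02e-05). S100a6 was high in all HFC libraries and highest in library 2, at 1864, 8516 and 2281 CPM against 709, 479, 339 and 264 (adjusted p = 0.000794). S100a9, a subunit of calprotectin, was lower in HFC (15.4, 0 and 5.89 against 229, 67.4, 149 and 132 CPM, adjusted p = 0.000939), as was Dapl1, at 109, 218 and 85.4 against 903, 1059, 2236 and 466 CPM (adjusted p = 0.000688). The count of lower members was 3 without HFC library 1, HFC library 2 or the thymic libraries titled 191_mTEC3 or 195_cTEC, and 2 without HFC library 3.

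Of 29 regulators of epidermal differentiation, 25 were tested, with 7 higher in HFC, 2 lower and 16 not called and a median of 0.86, and edgeR called 11 higher and 1 lower. Hr, hairless, a corepressor needed for the hair cycle, stood at 796 ± 176 CPM (SD, n = 3) in HFC and 11.4, 13.5, 47.6 and 70.9 in the thymic libraries (log2 difference 4.75 ± 0.55, adjusted p = 7.23e-05). Barx2, a homeobox factor of the follicle, was at 106, 148 and 152 and 11.4, 6.74, 17.8 and 0 CPM (adjusted p = 0.00231). Zfp750, an activator of terminal differentiation, was higher by 2.44 ± 0.53 (adjusted p = 0.00551), and so were Notch1, Notch3, Hes1 and Cebpb (log2 differences 1.75, 1.59, 1.32 and 1.69, adjusted p = 0.00494, 0.0114, 0.0349 and 0.00412). The call of Hes1, a Notch target, was lost whenever 1 HFC library was left out, and without the thymic library titled 191_mTEC4 or 195_cTEC. Klf4, which directs barrier formation, was at 576, 524 and 479 CPM in HFC and 554, 533, 642 and 1024 in the thymic libraries (adjusted p = 0.392, log2 difference -0.34, and 0.12 with median of ratios scaling). Elf3, an Ets factor of simple and stratified epithelia, was lower in HFC, at 15.4, 6.24 and 8.83 against 120.0, 175, 95.2 and 294 CPM (adjusted p = 0.000165), and Klf5 was the other lower member (adjusted p = 0.0111), a call lost with median of ratios scaling, edgeR, DESeq2 and without HFC library 3. Notch3 too lost its call without HFC library 3.

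Signalling genes of keratinocytes divided by side. Il1f6, which encodes interleukin-36 alpha, had 0 UMIs in HFC and 114, 148, 178 and 274 CPM in the thymic libraries, at least 109.6-fold higher (adjusted p = 5.54e-06), and the other 6-week libraries reached 32.6 CPM. Il1f5, the interleukin-36 receptor antagonist, and Il1rn, the interleukin-1 receptor antagonist, were lower in HFC as well (-2.81 and -2.02 log2 units, adjusted p = 0.012 and 0.00192). Pthlh, the parathyroid hormone-like hormone of keratinocytes, was on the contrary higher in HFC, at 167, 242 and 261 against 45.7, 20.2, 11.9 and 40.5 CPM (adjusted p = 0.000765). Hbegf, an epidermal growth factor receptor ligand, held 144, 197 and 53.0 against 11.4, 20.2, 17.8 and 20.3 CPM (adjusted p = 0.00337). Over the list, 12 of 15 genes in the table were tested, 4 higher, 4 lower and 4 not called, with a median of -0.14. Higher members were 2 without HFC library 1 or library 3, and lower members 2 without library 2, where Il1f5 lost its call. The remaining higher members were Epgn, epigen, and Fgfbp1, and the remaining lower one Il33 (adjusted p = 0.0192, 0.0326 and 0.0216).

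Programs of the follicle proper were found in HFC. Hoxc13 (chromosome 15, 102921103 to 102928814, plus strand), a homeobox activator of hair keratins, held 97.9, 162 and 144 CPM in HFC and 0 UMIs in all 4 thymic libraries, at least 26.5-fold higher against a floor of 3 UMIs over the thymic side (adjusted p = 6.31e-05). Lhx2, a follicle stem cell factor, had 109, 226 and 216 CPM in HFC and 1 UMI in the thymic libraries, a ratio of pooled shares of 112, with a 95% counting interval of 19.9 to 4431. Tbx1 and Sox9, also known from follicle stem cells, were at 165, 269.9 and 369.6 and 177, 359 and 219 CPM in HFC against 17.1, 0, 11.9 and 0 and 45.7, 20.2, 83.3 and 10.1 CPM (adjusted p = 0.000671 and 0.00392). Of 23 follicle regulators, 18 were in the table and 16 tested, 5 higher in HFC, 2 lower and 9 not called, with a median of 0.00. Over all genes 5.23% were higher and 17.1% lower. The fifth higher one was Ctnnb1, beta-catenin (adjusted p = 0.000291). The lower ones were Tcf7l1, a Wnt pathway factor (adjusted p = 0.00624), and Cux1 (adjusted p = 0.00164). Tcf7l1 lost its call with median of ratios scaling and with edgeR.

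Inner root sheath keratins were measured at modest levels. Krt71 held 97.9, 299.5 and 169 CPM in HFC and 0 UMIs in the thymic libraries, at least 37.2-fold higher (adjusted p = 4.5e-05). Krt25 and Krt27, its type I counterparts, held 26.9, 378 and 256 CPM and 223 ± 207 CPM (SD, n = 3) in HFC against 0, 0, 0 and 20.3 and 0, 0, 47.6 and 0 CPM (adjusted p = 0.00423 and 0.0139). HFC library 2 was highest for all 3 keratins, and library 1 lowest. Tchh, trichohyalin, which fills the inner root sheath, shared this peak (15.4, 290.2 and 19.1 CPM) and was called by edgeR, not by limma. In the thymic libraries Krt27 rested on the library titled 195_cTEC, and its call was lost in 4 other fits: DESeq2 and those without HFC library 2, HFC library 3 or the thymic library titled 191_mTEC4. The 16 hair shaft genes in the table summed to 33.9 to 85.8 CPM in HFC and 103 to 324 in the thymic libraries, and for 15 of 16 the median was under 50 CPM on both sides. Of them 7 were tested, and 0 were higher and 2 lower in HFC, Crym and Krt84, 1 without each HFC library in turn.

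Among outer root sheath and bulge genes, more were called higher in HFC than lower. Krt15, a keratin of the bulge, stood at 217, 197 and 322 CPM in HFC and 0, 0, 23.8 and 20.3 in the thymic libraries (adjusted p = 0.00197). Sostdc1, a secreted antagonist of Wnt and BMP, and Cxcl14, a chemokine of the follicle, were higher in HFC by 4.50 ± 0.89 and 4.80 ± 0.64 log2 units (adjusted p = 0.00315 and 0.000207). Cd34, a surface marker of mouse bulge cells, was at 1.92, 1.56 and 4.42 CPM in HFC, and at 91.4, 196, 83.3 and 81.1 CPM in the thymic libraries, and it is also known from endothelium and fibroblasts (adjusted p = 9.82e-05). Of 14 such genes found, 11 were tested, 4 higher, 2 lower and 5 not called, with a median of 1.92. The lower count is near the 17.1% over all genes, of which 5.23% were higher. The fourth higher member was Lrig1, a marker of the upper follicle (adjusted p = 0.0238, a call lost without each HFC library in turn or the thymic library titled 195_cTEC), and the second lower one Postn, periostin (adjusted p = 0.00153). Of sebaceous genes, with a median of 1.35, 3 of 7 tested were higher in HFC, Mgst1, Cidea and Plin2, and 1 when an HFC library was left out.

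Simple epithelial keratins marked the thymic side. Krt8 held 1.92, 1.56 and 11.8 CPM in HFC and 1959.8, 1739.6, 1523 and 1449 in the thymic libraries (log2 difference -8.24 ± 0.45, adjusted p = 1.74e-07). Its partner Krt18 held 17.3, 3.12 and 7.36 and 1846, 2036, 1743 and 1936 CPM (adjusted p = 1.11e-07). All 6 listed keratins of this class, with Krt7, Krt19, Krt20 and Krt23, were lower in HFC, and Krt20 lost the call in every fit that left out 1 library except that without the library titled 195_mTEC1. The thymic values of Krt8 and Krt18 lay inside the range of the other 6-week libraries. The Pth-high libraries thus held spinous keratins of stratified epithelium and keratins of simple epithelium together. Cldn7 and Cldn3, claudins of tight junctions, had the same direction: Cldn7 had 0 UMIs in HFC and 571, 357, 297 and 385 CPM in the thymic libraries, at least 247-fold higher, and Cldn3 held 51.8, 6.24 and 2.94 against 389, 418, 303 and 547 CPM (adjusted p = 0.000194). Cdh1, E-cadherin, was higher in HFC by 1.15 ± 0.28 (adjusted p = 0.0113), a call lost without HFC library 1. Of 11 tested junction genes, with a median of -0.93, 1 was higher and 5 lower, Cldn3, Cldn4, Cldn7, Cldn23 and Tjp3, and the lower ones were 3 with median of ratios scaling, with edgeR, without HFC library 2 and without library 3. The balance of this list turned with the tool: 2 were higher with median of ratios scaling, 3 with DESeq2, against 3 lower, and 4 with edgeR, against 3 lower.

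Most genes of antigen presentation had lower transcript levels in HFC than in the thymic libraries. Cd74, the invariant chain, held 13.4, 12.5 and 23.6 CPM in HFC and 4662, 7929.5, 3361 and 4621 in the thymic libraries (log2 difference -8.12 ± 0.32, adjusted p = 2.7e-08). Of 12 MHC class II genes, all tested, 9 were lower in HFC and 0 higher, with a median of -5.89. For class I and its loading machinery 11 of 13 were lower, with a median of -1.91, and 4 when a fold of at least 2 was required. Of these 13 genes, 9 reached a median of 50 CPM on both sides. B2m, the class I light chain, stood at 1811, 2281 and 1119 CPM in HFC and 7714, 5684, 7030.4 and 6496 in the thymic libraries (adjusted p = 0.00012). Psmb10, an immunoproteasome subunit, differed by -4.57 ± 0.32 (adjusted p = 1.14e-06), and Tap2, a peptide transporter subunit, overlapped (adjusted p = 0.74). Summed MHC class II levels in the 4 thymic libraries, 11140 to 22649 CPM, lay inside the range of the other 6-week libraries, 5930 to 95169.

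Genes of TEC identity were present in the Pth-high libraries at low levels. Foxn1 stood at 11.5, 26.5 and 36.8 CPM in HFC and 114, 60.7, 29.7 and 10.1 in the thymic libraries, overlapping between the sides (log2 difference -0.74 ± 0.74, adjusted p = 0.518). Aire, the autoimmune regulator, held 0, 3.12 and 4.42 and 114, 216, 77.3 and 30.4 CPM (adjusted p = 0.000953), against up to 2486 CPM in the other 6-week libraries. Fezf2, a second activator of self-antigens, held 1.92, 3.12 and 1.47 and 411, 384, 285 and 152 CPM (adjusted p = 2.32e-06). Of 17 tested identity genes 9 were lower in HFC and 0 higher (median -3.66), although edgeR and median of ratios scaling each called 1 higher, the chemokine gene Cxcl12, and of 11 tested NF-kB and costimulation genes 6 were lower and 0 higher (median -2.02).

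Beside Pth, endocrine and mucosal genes made up the far thymic end. Chga (chromosome 12, 102554969 to 102565028, plus strand), chromogranin A, a core protein of secretory granules, held 21.1, 3.12 and 1.47 CPM in HFC and 5571, 4774, 9629.6 and 5341 in the thymic libraries (log2 difference -9.74 ± 0.54, adjusted p = 2.13e-07). The other 6-week libraries reached 174 CPM. Chgb, a second granin, had 1 UMI in HFC and 280.0, 148, 506 and 365 CPM, and Casr, the calcium-sensing receptor of parathyroid cells, had 1 UMI against 97.1, 60.7, 137 and 70.9 CPM (adjusted p = 2.36e-06 and 0.000104). Gcm2, the factor that specifies parathyroid cells, had 0 UMIs in HFC and 45.7, 6.74, 5.95 and 0 CPM in the thymic libraries and was not tested. Pth was chosen by the rule and held 0, 1.56 and 0 CPM in HFC and 6565, 3891, 13888 and 4135 in the thymic libraries. The libraries were chosen on Pth, so the differences of these endocrine genes are not independent of that choice. The 5 parathyroid genes summed to 8880.2 to 24166 CPM in the thymic libraries and to at most 239 CPM in the other 6-week libraries, and the part of parathyroid cells, rather than TEC, in these levels was not tested.

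The 10 most lowered genes in HFC were Chga, Ubd, Reg3g, Cd177, Sncg, Wfdc2, Cyp2a5, C3, Saa3 and Pglyrp1. Reg3g, an antibacterial lectin of gut and airway, held 1.92, 3.12 and 2.94 CPM in HFC and 2411, 3129, 3283 and 2068 in the thymic libraries (log2 difference -9.25 ± 0.29, adjusted p = 5.02e-09). Ubd, the ubiquitin-like protein FAT10, had 1 UMI in HFC and 1811, 1133, 1303 and 1804 CPM, a ratio of pooled shares of 2752, with a 95% counting interval of 493 to 108804. Cd177, a surface glycoprotein known from neutrophils, had 1 UMI against 1434, 769, 1535 and 618 CPM, and the other 6-week libraries reached 115 CPM. Saa3, an acute phase protein, and Cyp2a5, a cytochrome P450, had 0 UMIs in HFC, at least 429.9-fold and 419.8-fold lower. For Reg3g, Ubd, Sncg, Wfdc2, Cyp2a5, C3 and Saa3 some thymic values lay within the range of the other 6-week libraries. At the HFC end the 10 most raised genes were Krt6a, Krt71, Lgals7, Krt14, Hoxc13, Lhx2, Fam83a, Cpsf4l, Eva1a and Cwh43. Cpsf4l and Cwh43 had 0 UMIs in the thymic libraries, and Fam83a, known as a kinase-binding protein, had 1, against 149.8, 162 and 168 CPM in HFC.

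Microfold cell genes, known from the gut epithelium over lymphoid follicles, were also thymic-high, with 6 of 7 tested lower in HFC and 0 higher. Their summed level in the Pth-high libraries, 1439 to 2194 CPM, overlapped that of the other 6-week libraries, 195 to 2135 CPM. Spib, the Ets factor of microfold cells, had 1 UMI in HFC and 657, 465, 506 and 223 CPM in the thymic libraries. Gp2, the bacterial receptor of these cells, had 0 UMIs against 280.0, 384, 315 and 81.1 CPM, at least 163-fold higher. Ccl20, a chemokine they secrete, held 7.68, 0 and 1.47 and 600.0, 297, 446 and 385 CPM (adjusted p = 3.76e-06). Tuft cell genes had 5 of 10 tested lower and 0 higher (8 lower by edgeR), among them Avil, at 0, 3.12 and 2.94 and 223, 175, 47.6 and 60.8 CPM, where the other 6-week libraries reached 3393 CPM.

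Markers of cells outside the epithelium were higher on the thymic side. Fibroblast genes were lower in HFC for 7 of 8 tested, and their summed level ran from 21.1 to 122 CPM in HFC and from 874 to 4105 in the thymic libraries. Dcn, decorin, a matrix proteoglycan, stood at 1.92, 1.56 and 20.6 CPM in HFC and 931, 1490.2, 488 and 2159 in the thymic libraries. Myeloid genes were lower for 8 of 9, thymocyte genes for 7 of 11 and endothelial genes for 5 of 8, with summed levels of 1865 to 2463, 223 to 636 and 196 to 1236 CPM in the thymic libraries and at most 29.6, 9.36 and 11.5 in HFC. The myeloid count was 5 without each HFC library in turn. In HFC 9 of 12 thymocyte genes and 5 of 8 endothelial genes had 0 UMIs. Merkel cell genes were lower for 2 of 2 tested, but for 1 in each fit that left out 1 library except that without 195_mTEC1, muscle genes for 1 of 2 and the 1 tested erythroid gene was not called. Of 9 cell cycle genes 1, Plk1, was higher in HFC, a call lost without each HFC library in turn. By edgeR 11 thymocyte and 7 endothelial genes were lower. The part of such cells in genes high in the thymic libraries was not tested. Melanocyte genes summed to at most 8.83 CPM in HFC and 10.1 CPM in the thymic libraries.

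Genes induced by tissue dissociation moved with the sides. Of 14, all tested, 10 were lower in HFC, 0 higher and 4 not called. The count was 3 with median of ratios scaling, 2 with edgeR, and between 3 and 6 in 6 of the 7 fits that left out a library, all except that without HFC library 2. Their summed level was 4416 to 7727 CPM in HFC and 8096 to 19803 in the thymic libraries, the library titled 195_mTEC1 being highest. Skin and thymus were digested with different enzymes, and the part of digestion in other differences was not tested.

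**Figure D5:**
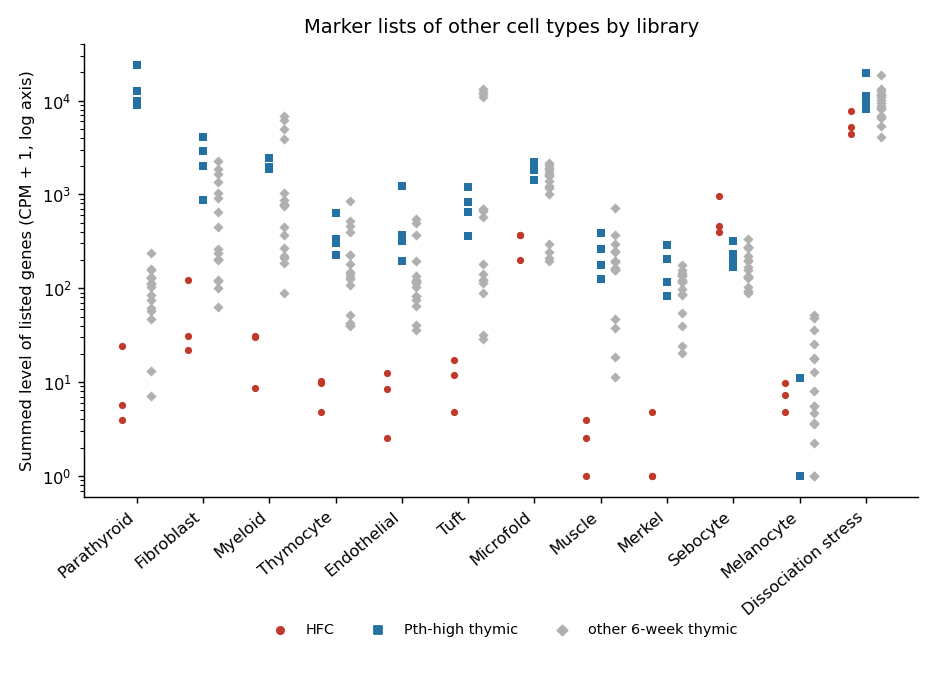
Summed level of listed marker genes per library (CPM + 1, log axis) for HFC (3 libraries), Pth-high thymic (4) and other 6-week thymic (16). The parathyroid sum includes Pth, on which the thymic side was chosen. Fibroblast, myeloid, thymocyte and endothelial sums are lower in the HFC libraries than in the Pth-high libraries for every library.

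Members of single gene clusters fell on different sides, as a description chosen after the values were seen. In the epidermal differentiation complex on chromosome 3, between S100a10 and S100a1 (90511034 to 93564643, GRCm38), 48 genes were tested, of which 5 were higher in HFC, 8 lower and 35 not called, the lower count being near the 17.1% over all genes (5.23% were higher). Of 13 type I keratins on chromosome 11, 6 were higher and 3 lower, of 15 genes in the type II keratin cluster on chromosome 15, where the type I gene Krt18 also lies, 5 were higher and 6 lower, and of 19 kallikreins on chromosome 7, 4 were higher and 6 lower. Within the cluster on chromosome 3, for example, Sprr1a and Lor overlapped between the sides and were not called, whereas Rptn was lower in HFC.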

How the data were processed

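RNA of sorted mouse cells was measured by bulk MARS-seq, per the labels' protocols. Build mm10 and the tools HTSeq, STAR 2.4.2a, DESeq2, cutadapt and bcl2fastq stand, with no role or order, in the submitters' processing notes. The authors deposited normalized signal values that sum to 100 per library, so a value is a percent of the library's UMIs. Dividing by each library's smallest step gave whole UMIs in 33 of 33 libraries (100% of values, within 0.01). The analysis plan had assumed normalized UMIs, so the same test was used on these shares.

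Shares were multiplied by the median library total (570253 UMIs), and log2(value + 1) was tested in the 7 libraries with limma 3.58.1 (R 4.3.3, two-sided moderated test, trended prior, Benjamini-Hochberg over 10602 genes with at least 5 normalized UMIs in 2 libraries, threshold 0.05). Log2 differences are HFC minus thymic, ± SE, and understate changes of genes with few UMIs. As edgeR 4.0.16 could be run on the recovered UMIs, it called 3318 genes. On simulated data limma recovered 58 of 100 genes changed 8-fold and 1 of 100 changed 2-fold, with 1 unchanged gene called. All other genes were left unchanged there, and the part of the sides' unequal makeup in wrong calls was not tested. Bounds and intervals (95%, exact binomial) cover counting error only.

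The members and the 34 gene lists (452 of 515 genes in the table) were chosen with earlier results of these data known. Genes were named by rule: the 4 markers, Pth and Foxn1, the 10 most raised and 10 most lowered genes without overlap, list members of at least 100 CPM on a side or among the 4 smallest adjusted p of a list, the 15 most abundant shared genes, and the 10 most abundant on each side. Basal and other list members called but below 100 CPM, Gapdh, Gcm2, the summed families and the gene clusters were added after values were seen. Coordinates are from GENCODE M21 (14991 symbols found). Other tools were DESeq2 1.42.0, Python 3.11.15, numpy 2.4.6, pandas 2.3.3 and matplotlib 3.10.9.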

Additional observations from a re-analysis of the deposited data

Results flagged for a closer look

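Among 234 genes named by the rule with at least 10 UMIs over the 4 thymic libraries, 22 had 1 library standing apart from the other 3, by a gap that exceeded Dixon's 95% value for 4 samples. Chance flags about 1 group in 20. All levels are in CPM, the library that stands apart first and the range of the other 3 second.

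The library titled 195_mTEC1, the shallowest of the 4, stood high for genes of other cells and of dissociation: C1qa, a complement gene of macrophages, with 426 CPM against at most 95.2, Plvap, an endothelial gene, with 811 CPM against 41.6 to 103, and Ifi30 with 780.4 CPM against 229 to 317. It also stood high for Dusp1 with 739.8 CPM against 297 to 326, Ier2 with 1753 CPM against 755 to 806 and Jund with 1074 CPM against 364 to 423.

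The library titled 195_cTEC, which held the most Pth, also held the most Chga with 9629.6 CPM against 4774 to 5571, and stood high for Klk6 with 1154 CPM against 256 to 405, Wfdc21 with 309 CPM against 122 to 143 and Pdzk1ip1 with 601 CPM against 426 to 440.0. It stood high for Notch1 with 101 CPM against 47.2 to 51.4 and Vdr, the vitamin D receptor, with 214 CPM against 67.4 to 70.9.

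The library titled 191_mTEC3 stood high for the late envelope genes Lce1d with 440.0 CPM against 0 to 6.74 and Lce1e with 423 CPM against 0 to 47.6. It was also apart for Cstb with 1091 CPM against 791 to 829, Tmprss4 with 314 CPM against 121 to 149 and Tnfrsf11b, osteoprotegerin, with 131 CPM against 20.2 to 30.4.

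The library titled 191_mTEC4 stood high for the small proline-rich genes Sprr1b with 303 CPM against 53.5 to 91.2 and Sprr2h with 418 CPM against 0 to 17.1. It was apart for Prss16, a cortical TEC protease, with 405 CPM against 17.1 to 35.7, Psmb9 with 391 CPM against 253 to 274 and Cd34 with 196 CPM against 81.1 to 91.4.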

How the results depend on the processing

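The 2365 calls were 1070 when a fold of at least 2 was required, and ran from 1458 to 2922 when 1 library was left out, lowest without an HFC library. Other settings (pseudocounts of 0.5 and 5, 3 filters, robust moderation, median of ratios scaling, edgeR, DESeq2, thymic libraries of 1 title number averaged, and libraries thinned to 98670 UMIs, the last added after the data were seen) gave 1701 to 3401 calls. Scaling changed the split: 554 of 2365 calls were higher in HFC with library totals, 916 of 2291 with median of ratios and 1296 of 3318 with edgeR. Of 179 named genes called, 19 lost their call with median of ratios scaling, 19 with edgeR and 29 after thinning, and 0 reversed. With a median of at least 20 CPM counted as expressed, 84 keratinocyte and hair genes were on neither side. No paired analysis was possible because the HFC libraries are numbered 1 to 3 and the thymic titles carry 191 and 195. Thymic depth limits what a 0 means there.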
